A study of Mus musculus with 9 samples.

Results

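The genes described here encode the transcription factors and cofactors that set the red cell programme: Gata1, Klf1, Nfe2, Tal1, Lmo2, Ldb1, Zfpm1, Gfi1b, Bcl11a and Sox6. They were read by every probe set that the platform annotation assigned to 1 of these genes alone, which gave 20 probe sets for 10 genes, of 45037 probe sets and 18193 genes tested in all. Peripheral blood was taken from mouse embryos at E12.5 of gestation, on a mixed C57BL6/129SvEv background, and frozen. Homozygous CbfbΔC95/ΔC95, heterozygous Cbfb+/ΔC95 and wild-type Cbfb+/+ embryos were compared, and blood of 8 to 10 embryos of 1 genotype was pooled. Total RNA was hybridised to 3 Affymetrix whole-genome mouse arrays per genotype, 9 in all. Cbfb encodes CBFβ, which stabilises RUNX proteins on DNA, the title of the series is about the C terminus of the leukaemia fusion protein CBFβ-SMMHC, and the labels give the allele ΔC95 no further description. Whether each array had its own pool is not given in the labels, so the p-values may cover technical spread alone. In such whole blood, fewer cells of a type and less RNA per cell cannot be told apart.

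In red cell precursors GATA1 binds DNA at GATA sites, often beside an E-box held by TAL1 and an E protein. LMO2 bridges the GATA1 and TAL1 sides, and LDB1 joins such assemblies to each other and brings distant enhancers to promoters. FOG1, encoded by Zfpm1, and GFI1B couple GATA1 to repression, KLF1 binds CACCC boxes, NFE2 pairs with a small MAF protein, and BCL11A and SOX6 silence embryonic globin genes in definitive red cells. Blood at this stage of mouse development consists largely of primitive red cells from the yolk sac.

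Promoter windows of 250 bases before and 50 bases after annotated starts were available from RefSeq, assembly GRCm38.p6, for 8 of the 10 genes, 16 windows in all. They were searched on both strands for 4 motifs. The GATA motif was spelled AGATAA or, in its other form, TGATAA, and the E-box was spelled CAGNTG. The CACCC box of KLF1 was spelled CCNCACCC. The RUNX motif was spelled TGTGGT or, in its other form, TGCGGT. The motifs can overlap one another. A GATA match lay in 6 of the 16 windows, against 18.6% of 32817 windows of the same length, and these windows belonged to 5 genes. An E-box lay in 7 windows, against 51.4% of all windows, a CACCC match in 4, against 16.6%, and a RUNX match in 3, against 22.4%. Sox6 has the most windows of these genes, so windows are not separate genes in these counts. The 4 windows below are shown because they hold a GATA match and belong to genes whose levels differ in pattern between the genotypes, with Tal1 and Ldb1 lower, Gfi1b higher and Klf1 level. Windows of Sox6, which was also lower, held GATA matches too and are not shown. Sequences run 5′ to 3′ on the strand of the gene, and capitals mark GATA matches and, in Klf1, also a RUNX match.
Tal1, chr4:115056176-115056475, plus strand: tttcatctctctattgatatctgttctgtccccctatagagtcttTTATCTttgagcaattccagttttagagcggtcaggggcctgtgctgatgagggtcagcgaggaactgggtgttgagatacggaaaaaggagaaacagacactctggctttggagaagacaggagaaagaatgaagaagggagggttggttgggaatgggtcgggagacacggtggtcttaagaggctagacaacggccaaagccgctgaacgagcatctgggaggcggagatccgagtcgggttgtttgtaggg
Ldb1, chr19:46037021-46037320, minus strand: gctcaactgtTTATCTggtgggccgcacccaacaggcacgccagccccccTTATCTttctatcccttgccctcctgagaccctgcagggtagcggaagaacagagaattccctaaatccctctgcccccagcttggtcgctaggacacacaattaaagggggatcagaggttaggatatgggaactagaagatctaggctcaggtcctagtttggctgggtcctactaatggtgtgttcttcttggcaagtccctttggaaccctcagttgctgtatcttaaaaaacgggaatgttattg
Gfi1b, chr2:28621933-28622232, minus strand: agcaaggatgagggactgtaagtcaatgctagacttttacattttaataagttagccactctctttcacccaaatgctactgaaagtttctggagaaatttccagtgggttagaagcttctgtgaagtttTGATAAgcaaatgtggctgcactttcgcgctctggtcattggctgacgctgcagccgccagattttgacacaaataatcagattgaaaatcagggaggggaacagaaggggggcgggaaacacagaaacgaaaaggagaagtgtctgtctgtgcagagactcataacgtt
Klf1, chr8:84901732-84902031, plus strand: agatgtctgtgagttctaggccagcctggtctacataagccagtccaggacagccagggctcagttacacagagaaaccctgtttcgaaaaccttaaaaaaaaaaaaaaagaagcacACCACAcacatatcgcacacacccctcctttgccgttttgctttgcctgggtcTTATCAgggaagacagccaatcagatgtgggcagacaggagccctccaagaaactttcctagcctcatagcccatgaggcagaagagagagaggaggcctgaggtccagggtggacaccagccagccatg
The first base of the GATA match lies 205 bases before the start in Tal1, 240 and 200 before it in Ldb1, 120 before it in Gfi1b and 80 before it in Klf1. The RUNX match in Klf1 lies 133 bases before its start, and the other RUNX matches were in windows of Sox6. Further windows of Tal1 and Ldb1, at other annotated starts, held none of these motifs. These matches are descriptions of the letters and not sites of binding.

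All levels are deposited values taken as log2, and each difference is a log2 difference tested with limma, adjusted over 45037 probe sets, with a gene called where the adjusted p is under 0.05. Values are relative within an array. The 24 poly-A spike-in probe sets, which read transcripts added before labelling, had a mean log2 level of 11.96 ± 0.02 in homozygous, 11.26 ± 0.00 in heterozygous and 10.38 ± 0.02 in wild-type arrays (SD, n = 3 each). Setting them equal would move the median of all probe sets to -1.54 in homozygous minus wild-type blood and to -0.87 in heterozygous minus wild-type blood, so "higher" and "lower" below mean relative to the other genes of an array. The 18 hybridisation control probe sets read transcripts added after labelling. Their mean log2 level was 10.60 ± 0.07 in homozygous, 10.32 ± 0.04 in heterozygous and 10.32 ± 0.01 in wild-type arrays (SD, n = 3 each). The cause of these control differences was not tested. Cbfb itself, by its single probe set, had log2 levels of 4.93, 5.13 and 5.25 in homozygous, 5.73, 5.80 and 5.79 in heterozygous, and 6.00, 6.04 and 5.98 in wild-type blood. Arrays of different genotypes did not overlap in Cbfb, but the place of its probes in the allele was not examined, so it does not check the labels. Correlations between arrays of 1 genotype were 0.996 to 0.998 over all probe sets, and no array stood apart from its genotype.

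In homozygous blood Tal1 and Lmo2 were lower, by 1.95-fold and 1.89-fold, Ldb1 and Nfe2 were lower by less, Gfi1b was 1.30-fold higher, Gata1 was 1.13-fold higher, a call lost in most alternatives, and Zfpm1 and Klf1 did not pass the test. Sox6 was lower by all its probe sets, and those of Bcl11a disagreed. In heterozygous blood Lmo2 and Ldb1 were already close to their homozygous levels, whereas Tal1 lay between the other genotypes.

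**Figure D1:**
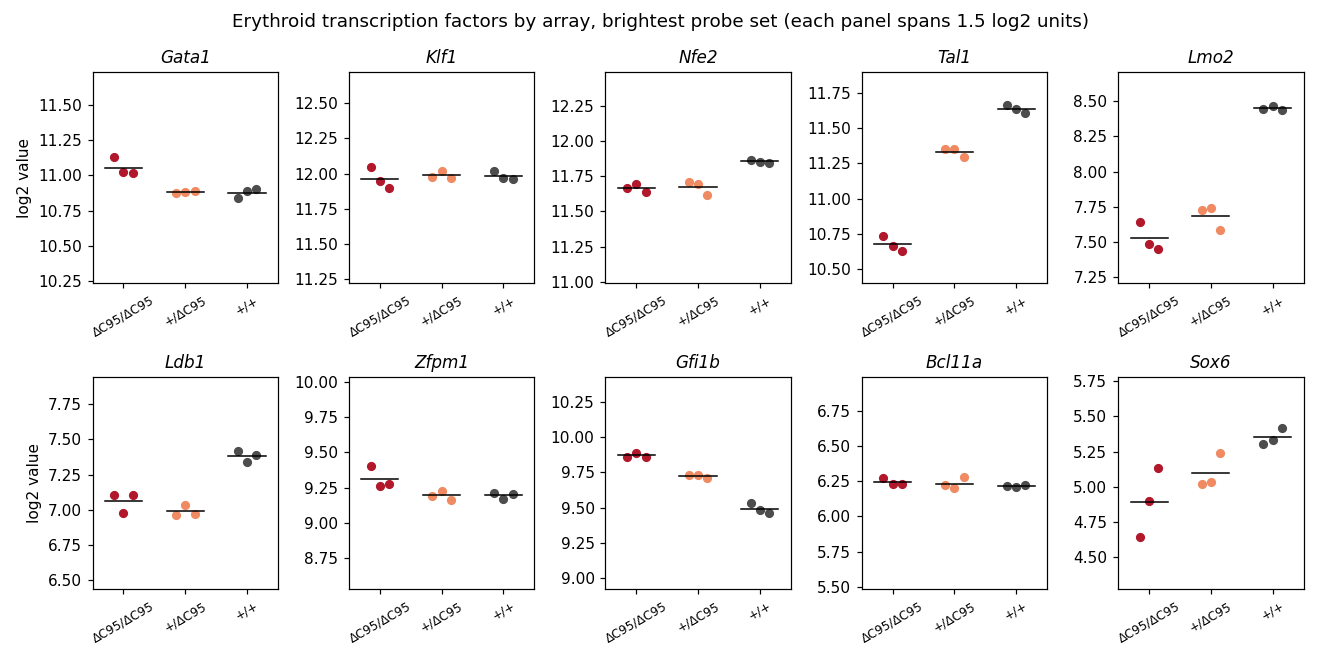
Log2 level of each gene on each of the 9 arrays, by its brightest probe set, with homozygous, heterozygous and wild-type arrays from left to right; points are arrays and bars are means. Tal1 steps down with each copy of the allele, Lmo2 and Ldb1 are low in both mutant genotypes, Gfi1b is high in both, and Klf1 is spread over 0.145.

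Tal1, the basic helix-loop-helix factor needed for all blood formation, had log2 levels of 10.74, 10.66 and 10.63 in homozygous, 11.35, 11.36 and 11.29 in heterozygous, and 11.67, 11.64 and 11.61 in wild-type blood. The 3 genotypes did not overlap, with homozygous arrays lowest and heterozygous arrays in between. The homozygous minus wild-type difference was -0.96 ± 0.06 (SE; 1.95-fold lower, limma adjusted p = 1.75e-07, lower in 3 of 3 arrays). The heterozygous minus wild-type difference was -0.30 ± 0.06 (SE; limma adjusted p = 0.00462), and homozygous minus heterozygous was -0.66 ± 0.06 (SE; limma adjusted p = 1.0e-05). Heterozygous blood lay 0.18 above the midpoint of the other genotypes on the log2 scale, which did not pass the test (limma adjusted p = 0.0723) but did in 6 of 22 alternatives, among them without homozygous replicate 1.

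Lmo2, the LIM-only bridge between TAL1 and GATA1, had log2 levels of 7.65, 7.49 and 7.45 in homozygous, 7.73, 7.74 and 7.59 in heterozygous, and 8.44, 8.47 and 8.44 in wild-type blood. Both mutant genotypes were below every wild-type array, and they overlapped each other. Lmo2 differed from wild type by -0.92 ± 0.07 in homozygous blood (SE; 1.89-fold lower, limma adjusted p = 1.18e-06) and by -0.76 ± 0.07 in heterozygous blood (SE; 1.70-fold lower, limma adjusted p = 4.7e-05). In homozygous minus heterozygous blood it was at -0.16, which did not pass (95% interval -0.31 to -0.01, limma adjusted p = 0.177). Its heterozygous level lay off the midpoint of the other genotypes, by -0.30 ± 0.06 (SE; limma adjusted p = 0.0136), a call lost without heterozygous replicate 3 (adjusted p = 0.0706) and without moderation of the variances (adjusted p = 0.0525).

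Ldb1, which encodes the LIM-domain-binding protein that self-associates and loops enhancers to promoters, had log2 levels of 7.10, 6.98 and 7.10 in homozygous, 6.96, 7.03 and 6.97 in heterozygous, and 7.42, 7.34 and 7.39 in wild-type blood. Again both mutant genotypes lay below wild type and overlapped each other. The difference from wild type was -0.32 ± 0.06 in homozygous blood (SE; limma adjusted p = 0.00173) and -0.39 ± 0.06 in heterozygous blood (SE; limma adjusted p = 0.00134). Homozygous minus heterozygous blood was at 0.07, with a 95% interval of -0.06 to 0.20 (limma adjusted p = 0.494). The heterozygous level lay -0.23 from the midpoint (limma adjusted p = 0.0264), but this call was lost with the replicate number as a block (adjusted p = 0.052) and without any of 5 single arrays, namely heterozygous replicates 1, 2 and 3 and wild-type replicates 1 and 3, at adjusted p-values of 0.0625 to 0.127.

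Gata1, the master zinc-finger factor of red cells and megakaryocytes, had log2 levels of 11.13, 11.02 and 11.02 in homozygous, 10.88, 10.88 and 10.89 in heterozygous, and 10.84, 10.89 and 10.90 in wild-type blood. Homozygous arrays were above all others, and the other genotypes overlapped. The homozygous minus wild-type difference was 0.18 ± 0.06 (SE; 1.13-fold, limma adjusted p = 0.0435), and it would be -1.40 with equal poly-A spike-in means. This call was lost in 16 of 23 alternatives, among them the replicate block (adjusted p = 0.0749), equal means of reference genes (adjusted p = 0.115), the fit without homozygous replicate 1 (0.14, adjusted p = 0.0928), and the fits without homozygous replicate 2 or without any 1 heterozygous or wild-type array. In heterozygous minus wild-type blood Gata1 was at 0.01, with a 95% interval of -0.12 to 0.13 (limma adjusted p = 0.979). In homozygous minus heterozygous blood it was at 0.17, which did not pass (limma adjusted p = 0.0713) but did in 7 of 23 alternatives.

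Gfi1b, a zinc-finger repressor that recruits the CoREST complex, had log2 levels of 9.86, 9.89 and 9.86 in homozygous, 9.73, 9.73 and 9.71 in heterozygous, and 9.53, 9.48 and 9.46 in wild-type blood. The 3 genotypes did not overlap, in the reverse order of Tal1. Against wild type, Gfi1b was higher in homozygous blood by 0.38 ± 0.05 (SE; 1.30-fold, limma adjusted p = 0.000207), and would be at -1.20 with equal poly-A spike-in means. The heterozygous minus wild-type difference of 0.23 ± 0.05 passed the test (SE; limma adjusted p = 0.016), and would be -0.65 with equal spike-in means. This second call was lost with equal means of reference genes (0.17, adjusted p = 0.113) and without heterozygous replicate 1 or 2 or wild-type replicate 2 or 3, at adjusted p-values of 0.0588 to 0.0697. Homozygous minus heterozygous blood was at 0.14 and did not pass (limma adjusted p = 0.106).

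Zfpm1 encodes FOG1, the partner that GATA1 needs at many of its sites. Its brighter probe set had log2 levels of 9.40, 9.26 and 9.28 in homozygous, 9.19, 9.23 and 9.16 in heterozygous, and 9.21, 9.17 and 9.20 in wild-type blood. Homozygous arrays were above the others, but the difference from wild type of 0.12 did not pass the test (95% interval -0.01 to 0.25, limma adjusted p = 0.195), nor did 0.18 by the second probe set (limma adjusted p = 0.0794). With quantile normalization both passed, at 0.19 and 0.27. In heterozygous minus wild-type blood the Zfpm1 probe sets lay within 0.01 of 0.

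Klf1, the Krüppel-like activator of adult beta-globin and many red cell genes, had log2 levels of 12.04, 11.95 and 11.90 in homozygous, 11.97, 12.02 and 11.97 in heterozygous, and 12.02, 11.97 and 11.96 in wild-type blood. The 3 genotypes overlapped, and the 9 arrays spanned 0.145. The difference from wild type was -0.02 in homozygous blood (95% interval -0.14 to 0.11, limma adjusted p = 0.868) and 0.01 in heterozygous blood (95% interval -0.12 to 0.13, limma adjusted p = 0.974). These intervals hold no change of the size seen in Tal1, Lmo2 or Ldb1.

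Nfe2 encodes the p45 subunit of the NF-E2 dimer, which acts on globin and platelet genes. Its log2 levels were 11.66, 11.70 and 11.64 in homozygous, 11.71, 11.69 and 11.61 in heterozygous, and 11.87, 11.85 and 11.85 in wild-type blood. Both mutant genotypes lay below all wild-type arrays and overlapped each other. The homozygous minus wild-type difference of -0.19 ± 0.05 passed the test (SE; 1.14-fold lower, limma adjusted p = 0.0284). It no longer passed with quantile normalization (-0.13, adjusted p = 0.122) or without homozygous replicate 3 or any 1 wild-type array, at adjusted p-values of 0.068 to 0.08. The heterozygous minus wild-type difference of -0.18 was of about the same size and did not pass (limma adjusted p = 0.0647), though it did under 6 of 23 alternatives. Homozygous minus heterozygous blood was at -0.01, with a 95% interval of -0.13 to 0.11.

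Sox6, an SRY-box factor of red cell maturation, was lower in homozygous blood by all 4 of its probe sets. The brightest had log2 levels of 4.64, 4.90 and 5.13 in homozygous, 5.02, 5.03 and 5.24 in heterozygous, and 5.31, 5.34 and 5.42 in wild-type blood. The wild-type arrays lay above all others, and the mutant genotypes overlapped. The homozygous minus wild-type difference was -0.46 ± 0.11 (SE; limma adjusted p = 0.00872, lost without moderation of the variances at adjusted p = 0.0708), and -0.40, -0.69 and -0.66 by the other probe sets, at wild-type means of 3.92, 3.85 and 3.35. In heterozygous blood these gave -0.54 (limma adjusted p = 0.000878), -0.38 (adjusted p = 0.0238) and -0.41 (adjusted p = 0.0317), while the brightest gave -0.25 and did not pass (adjusted p = 0.22). The call at -0.38 was lost without heterozygous replicate 3 or wild-type replicate 1 or 2, and that at -0.41 without 6 single arrays (homozygous replicate 1, heterozygous replicates 1, 2 and 3, and wild-type replicates 2 and 3), up to an adjusted p of 0.159. Such levels lie near or below the array medians of 4.27 to 4.30, detection calls were not used here and signal over background is unknown.

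Bcl11a, the zinc-finger repressor of embryonic and fetal globin genes, was read by 7 probe sets that did not move together. The brightest had log2 levels of 6.27, 6.23 and 6.23 in homozygous, 6.22, 6.20 and 6.28 in heterozygous, and 6.22, 6.21 and 6.22 in wild-type blood. It did not pass the test, with a homozygous minus wild-type difference of 0.03 (95% interval -0.09 to 0.14, limma adjusted p = 0.764). The other probe sets lay at wild-type means of 2.25 to 5.30, and 2 of them were lower in homozygous blood than in wild type, by -0.36 (limma adjusted p = 0.000772) and -0.31 (limma adjusted p = 0.0103), at wild-type means of 3.02 and 2.43. The call at -0.31 was lost without wild-type replicate 1 (-0.25, adjusted p = 0.0507), and 0 of the 7 passed in heterozygous minus wild-type blood by limma, with 1 at an unadjusted p under 0.05.

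**Figure D2:**
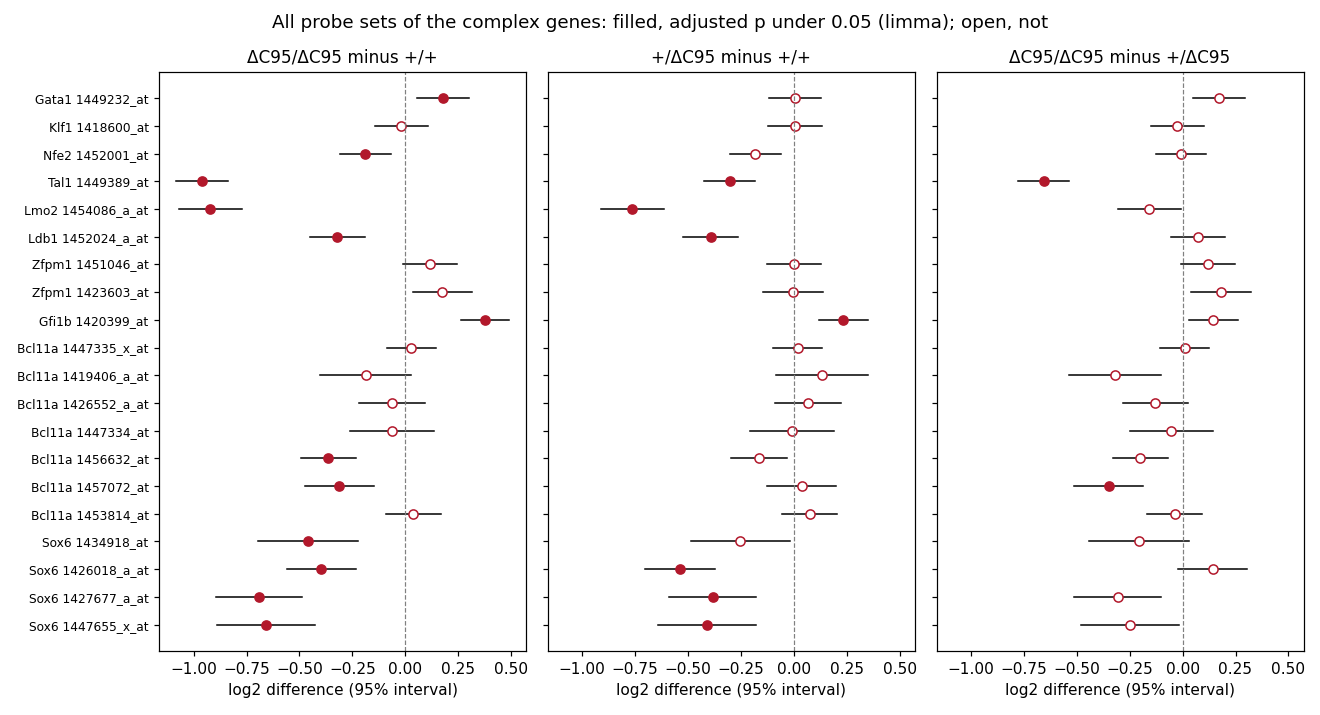
Log2 difference of each of the 20 probe sets in homozygous minus wild-type, heterozygous minus wild-type and homozygous minus heterozygous blood, with 95% intervals from the limma fit; filled points passed the adjusted p of 0.05 and open points did not. Tal1 and Lmo2 have the largest homozygous differences, at -0.96 and -0.92, and those of Klf1 lie near 0 in all 3 panels.

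Between homozygous and wild-type blood, 12 of the 20 probe sets passed the test, 2 higher and 10 lower, against 20.0% of all probe sets, of which 8.34% were higher and 11.7% lower. Taking each gene by its brightest probe set, 7 of the 10 genes passed, against 25.6% of all genes (10.7% higher and 14.9% lower), and in 9 of the 10 homozygous and wild-type arrays had no overlap, against 39.3% of all genes. Those 9 include Zfpm1 and Bcl11a, which did not pass, and Bcl11a differed by only 0.03, by a probe set ending in _x_at. Gata1 and Gfi1b were higher, and Tal1, Lmo2, Ldb1, Nfe2 and Sox6 lower. Bright genes were called more often over the whole table, and among genes with a mean log2 level of at least 6 the share called was 52.7% (22.4% higher and 30.3% lower), against 6 of the 9 complex genes in that range, and the share without overlap was 69.0%, against 8 of the 9. No test of the list was made, so this is a description. The median difference was -0.19 over the 20 probe sets, of which 11 belong to Bcl11a and Sox6, and 0.04 over all probe sets. By brightest probe set it was -0.10 over the 10 genes and 0.05 over all genes, and at a mean log2 level of at least 6 it was -0.02 over the 9 genes and 0.01 over all.

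Between heterozygous and wild-type blood, 7 of the 20 probe sets passed, 1 higher and 6 lower, against 8.56% of all probe sets (3.41% higher and 5.15% lower). By brightest probe set these were Gfi1b, higher, and Tal1, Lmo2 and Ldb1, lower, so 4 of 10 genes passed, against 11.8% of all genes (4.79% higher and 7.04% lower). At a mean log2 level of at least 6 these were 4 of the 9 genes, against 27.7% of all such genes (11.3% higher and 16.5% lower). Arrays did not overlap in 6 of the 10 genes, against 29.9% of all genes, but in 5 of the 9 brighter genes, against 58.5% of all brighter genes, a share near the background. The median difference was -0.01 over the 20 probe sets, against 0.01 over all probe sets, and by brightest probe set -0.09 over the 10 genes, against 0.01 over all genes. At a mean log2 level of at least 6 it was -0.0015 over the 9 genes and -0.0045 over all such genes. The 2 comparisons share their wild-type arrays, so likeness between them is not independent evidence. Homozygous and heterozygous blood differed in 2 of the 20 probe sets, 1 of Tal1 and 1 of Bcl11a, both lower in homozygous blood, against 12.1% of all probe sets (4.17% higher and 7.95% lower). By brightest probe set that was Tal1, 1 of 10 genes against 15.8% of all genes (5.38% higher and 10.4% lower), and 1 of the 9 brighter genes against 31.7% of such genes (11.1% higher and 20.6% lower). Arrays did not overlap in 4 of the 10 genes, against 31.1% of all genes, and in 4 of the 9 brighter genes, against 54.2% of such genes. The count of 2 probe sets that passed was not stable. It came to 4 to 6 with an intensity trend, without moderation, with array weights, cyclic loess, quantile normalization or reference genes. Without homozygous replicate 1 it came to 4. Under these settings 4062 to 6418 of all 45037 probe sets passed, against 5459 in the main fit. Heterozygous blood lay off the midpoint of the other genotypes in 3 of the 20 probe sets, of Lmo2, Ldb1 and Sox6 (a dim probe set, at -0.34), all below it, against 3.72% of all probe sets (2.65% above and 1.07% below). By brightest probe set these were 2 of 10 genes, against 5.18% of all genes (3.64% above and 1.53% below). Among the brighter genes they were 2 of 9, against 10.5% of such genes (7.11% above and 3.43% below). The count of 3 probe sets fell to 1 without heterozygous replicate 1 and to 0 without heterozygous replicate 3.

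The genes that work beside the complex moved unevenly. Counts for these lists are to be read against the shares over the whole table. Over all genes 25.6% were called in homozygous and 11.8% in heterozygous minus wild-type blood. At a mean log2 level of at least 6 these shares were 52.7% and 27.7%. Of 12 TAL1 partner genes, 6 had an unadjusted p under 0.05 by limma in homozygous minus wild-type blood, some higher and some lower. By the adjusted p, 1 of the 12 was lower and none higher there, with a median difference over the list of 0.02. It was Ssbp3, whose product protects LDB1 from degradation, with log2 levels of 8.43, 8.37 and 8.39 in homozygous, 9.03, 9.05 and 9.05 in heterozygous, and 9.18, 9.16 and 9.17 in wild-type blood. Its arrays did not overlap between genotypes, and the homozygous minus wild-type difference was -0.77 ± 0.05 (SE; limma adjusted p = 5.42e-07), while its second probe set gave -0.60. In heterozygous minus wild-type blood 0 of the 12, which include the E protein genes Tcf3, Tcf4 and Tcf12 and the corepressor gene Cbfa2t3, passed by limma with their brightest probe sets, and 2 had an unadjusted p under 0.05.

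Of 7 genes of NFE2 partners and relatives, 5 were lower and 1 higher in homozygous blood than in wild type, against 25.6% of all genes and 52.7% of those at a mean log2 level of at least 6 called either way, and with a median difference of -0.35 against 0.05 over all genes. Mafk, a small MAF partner of NFE2, had log2 levels of 6.64, 6.64 and 6.66 in homozygous, 6.78, 6.76 and 6.58 in heterozygous, and 7.14, 7.10 and 7.07 in wild-type blood. It was lower in both mutant genotypes, which overlapped each other, with differences from wild type of -0.46 in homozygous blood (limma adjusted p = 0.000214) and -0.40 in heterozygous blood (limma adjusted p = 0.00202). Mafg, a second small MAF gene, differed by -0.35 in homozygous and -0.33 in heterozygous blood (limma adjusted p = 0.000902 and 0.00427). Bach1, which competes for the same sites as a repressor, differed by -1.24 in homozygous and -0.39 in heterozygous blood (limma adjusted p = 3.88e-08 and 0.00135). The stress-response relative Nfe2l2 was at -0.74 in homozygous blood and did not pass in heterozygous blood, but its other, dimmer probe set gave 0.10. The gene that was higher, named after its values were seen, was Maff, at 0.31 in homozygous minus wild-type blood.

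**Figure D3:**
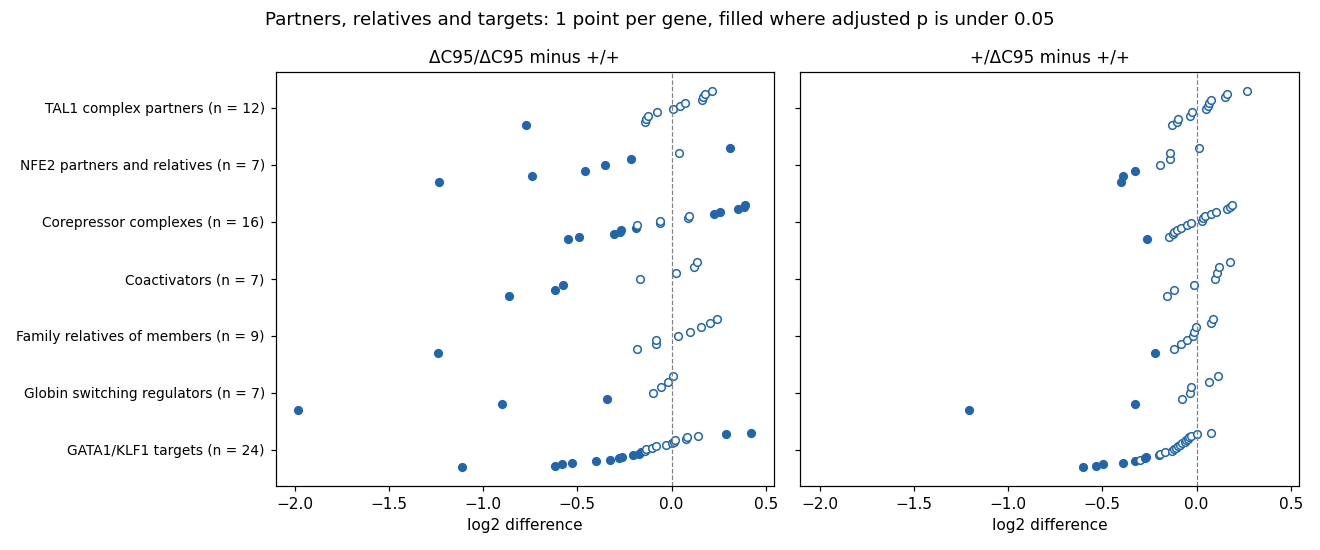
Log2 differences of partner genes, corepressors, coactivators, family relatives, globin switching regulators and red cell target genes in homozygous minus wild-type and heterozygous minus wild-type blood, 1 point per gene by its brightest probe set; filled points passed the adjusted p of 0.05. The NFE2 partners lie mostly below 0 and the corepressors on both sides.

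Corepressor genes used by GATA1, FOG1, GFI1B and BCL11A were called in both directions in homozygous blood, 6 of 16 lower and 5 higher, as were genes at a mean log2 level of at least 6 over the whole table, 30.3% lower and 22.4% higher. Mbd2, a methyl-CpG reader of the NuRD complex, was at -0.55 and the deacetylase gene Hdac2 at -0.49 in homozygous minus wild-type blood (limma adjusted p = 0.000141 and 0.000468). The NuRD subunit genes Gatad2a and Mbd3 were higher by 0.39 and 0.38 (limma adjusted p = 0.000222 and 0.00083). Mbd2, at -0.26, was the only one of the 16 to pass in heterozygous minus wild-type blood (limma adjusted p = 0.0466). Of 7 measured coactivator genes, 3 were lower in homozygous blood, and 0 of the 7 passed in heterozygous minus wild-type blood by limma, also 0 at an unadjusted p under 0.05. The acetyltransferase gene Ep300 was at -0.86 (limma adjusted p = 4.15e-06). Kat2b was at -0.62 and Crebbp at -0.58, but their probe sets disagreed, with others of Kat2b at 0.14 and 0.10 and others of Crebbp between -0.46 and 0.30.

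Of 9 family relatives of the complex genes, 1 was lower in homozygous and in heterozygous blood and none higher. It was Klf3, a repressor that KLF1 activates, at -1.24 in homozygous and -0.22 in heterozygous minus wild-type blood (limma adjusted p = 3.29e-08 and 0.0308), and its other probe sets ranged in homozygous blood from -0.52 to 0.17. Gata2, the progenitor GATA factor, was at -0.18 in homozygous minus wild-type blood and did not pass (limma adjusted p = 0.0939). Of 7 other regulators of globin switching, 3 were lower in homozygous blood. Arid3a had differences of -0.90 in homozygous and -0.33 in heterozygous blood (limma adjusted p = 6.96e-07 and 0.00574). Myb, which drives definitive progenitors, had differences of -1.98 in homozygous and -1.21 in heterozygous blood (limma adjusted p = 3.66e-06 and 0.000854). Its probe set, which ends in _x_at, had mean log2 levels of 3.41 in homozygous, 4.19 in heterozygous and 5.39 in wild-type blood. Both mutant means lie below the array medians of 4.27 to 4.30, where signal over background is unknown. Nr2c2, a nuclear receptor that represses embryonic globin genes, was at -0.34 in homozygous blood.

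Known targets of GATA1 and KLF1 in red cells were called, both directions together, at about the share of bright genes in general. By direction, a larger share of the targets was lower and a smaller share higher. In homozygous minus wild-type blood 11 of 24 measured target genes were lower and 2 higher, against 30.3% lower and 22.4% higher among all genes at a mean log2 level of at least 6. The median difference of the targets was -0.14. The ubiquitin ligase gene Trim10 was at -1.11, the membrane skeleton gene Epb42 at -0.62, the transferrin receptor gene Tfrc at -0.58 and the blood group gene Ermap at -0.53. The 2 that were higher, named after their values were seen, were the CDK inhibitor gene Cdkn1a at 0.42 and the spectrin gene Sptb at 0.29. In heterozygous minus wild-type blood 7 of the 24 were lower and none passed upwards by limma, against 16.5% lower and 11.3% higher among genes at that level, with a median of -0.12, led by the erythroid translocator gene Tspo2 at -0.60. Trim10 followed at -0.53, Tfrc at -0.49 and the cell cycle factor E2f2 at -0.39. The other probe sets of Tfrc gave -0.13 and -0.17 in homozygous blood and did not pass there.

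Marker lists of cell types did not all move alike, and their part in the results was not tested. The 8 measured primitive erythroid markers had a mean log2 level of 12.35 to 12.41 in homozygous, 12.44 to 12.45 in heterozygous and 12.56 to 12.58 in wild-type arrays. Of these 8, Alas2, Slc4a1, Epb42 and Ermap are also counted among the red cell targets above. The lists therefore overlap, and this list does not mark primitive cells alone. The test called 4 of 8 lower in homozygous and 3 of 8 lower in heterozygous blood. Among all genes at a mean log2 level of at least 6, 30.3% and 16.5% were lower. Over all genes 14.9% were lower and 10.7% higher in homozygous, and 7.04% lower and 4.79% higher in heterozygous blood. Marker counts below are to be read against these shares. Megakaryocyte and platelet cells also use Gata1, Zfpm1, Gfi1b, Nfe2 and Tal1, and their 10 measured markers lay at 5.23 to 5.24 in homozygous, 6.61 to 6.66 in heterozygous and 6.41 to 6.45 in wild-type arrays. Of these, 8 were lower in homozygous blood, while 2 were higher and none lower in heterozygous blood. The 12 macrophage markers lay at 4.57 to 4.65 in homozygous, 6.80 to 6.84 in heterozygous and 7.22 to 7.28 in wild-type arrays, and all 12 were lower in homozygous and 6 in heterozygous blood.

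Progenitor markers, of a cell type that also uses Tal1, Lmo2 and Gfi1b, were lower in 4 of 9 genes in homozygous and 3 of 9 in heterozygous blood, with mean log2 levels of 4.47 ± 0.06 in homozygous, 4.69 ± 0.01 in heterozygous and 4.91 ± 0.02 in wild-type blood (SD, n = 3 each). Mast cell markers had 1 of 8 lower in each mutant genotype, the protease gene Cpa3, named after its values were seen. Of the 9 endothelial markers, of a tissue that also uses Tal1 and Lmo2, 0 passed in either mutant genotype by limma (unadjusted p under 0.05 in 1 in homozygous and 0 in heterozygous blood), at mean log2 levels of 4.06 to 4.13 in homozygous, 4.16 to 4.19 in heterozygous and 4.10 to 4.17 in wild-type arrays. For Bcl11a and Sox6, which other tissues use, 1 of 8 lymphoid markers was higher in homozygous blood, neural markers were higher in 1 of 8 genes in homozygous and 2 of 8 in heterozygous blood, and cartilage and mesenchyme markers were lower in 2 of 8 in homozygous and higher in 3 of 8 in heterozygous blood.

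**Figure D4:**
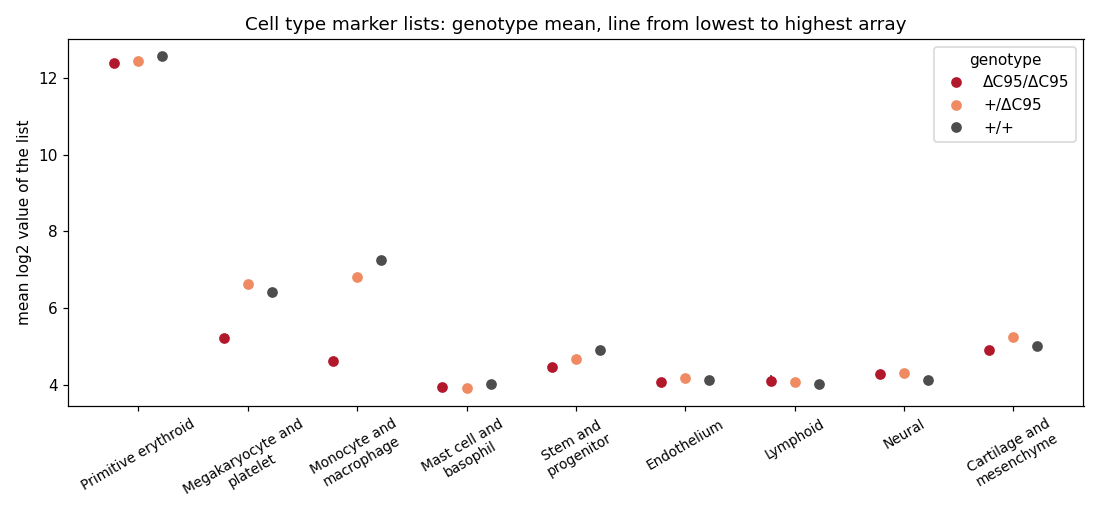
Mean log2 level of the measured markers of 9 cell types; points are means of the 3 homozygous, heterozygous or wild-type arrays, from left to right, and lines, mostly hidden by the points, run from the lowest to the highest array. Macrophage markers lie at 4.61 in homozygous and 7.26 in wild-type blood, and endothelial markers lie between 4.06 and 4.19 in all arrays.

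Among 5620 other named genes with a mean log2 level of at least 6, the genes whose values were most like those of a complex gene over the 9 arrays were sought by Pearson correlation, as a description of arrays that share genotype groups and scaling. For Tal1 they were Fbxo9, Ubxn4 and Usp32, at r = 0.999, 0.998 and 0.998. Fbxo9 was at 8.61 ± 0.04 in homozygous, 9.15 ± 0.00 in heterozygous and 9.40 ± 0.03 in wild-type blood (SD, n = 3 each), the same order of genotypes as Tal1. For Gata1 they were Slc41a3, Dazap1 and Rtf2, at r = 0.99, 0.989 and 0.987. For Klf1, whose arrays hardly differed, they were Bod1, Entr1 and Rac1, at r = 0.922, 0.921 and 0.92.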

How the data were processed

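Total RNA of pooled embryonic peripheral blood was measured on 9 arrays. RNA-STAT was used for extraction and one-cycle labelling for the targets, per the labels' protocols. Affymetrix Expression Console 1.0, RMA and Partek 6.5 are named, per the submitters' processing notes, without the step each did. The deposited table holds 45101 rows with values of 1.49 to 14.56, which the labels give no scale for and which were taken as log2 from that range and from RMA being named. Scanner files were not used here. The number of arrays limits the precision.

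After 64 control rows were left out, 45037 probe sets were tested. The platform annotation names 1 gene for 34945 of them, and 34741 symbols were matched through Entrez identifiers to RefSeq names with 0 changed. For each of 18193 genes the probe set of highest mean level, called the brightest, stands for the gene. Groups came from the sample titles. Using limma 3.58.1 under R 4.3.3, a genotype model with moderated variances was fitted to all 9 arrays, with 2-sided tests, Benjamini-Hochberg adjustment over all tested probe sets and a threshold of 0.05. The procedure was tested on simulated data. Figures were drawn with matplotlib 3.10.9.

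The 10 genes and all lists were chosen with earlier results of these data known. All probe sets of the 10 genes were reported. From partner, relative and target lists, up to 4 called genes with the largest change per contrast were named, and for Gata1, Klf1 and Tal1 the 3 genes most correlated with each. Second probe sets and uncalled genes given as values were added after their values were seen. Alternatives tried were the replicate number as a block, fits of 2 groups at a time, an intensity trend in the variance prior, no moderation, cyclic loess, quantile normalization, array weights, equal array medians, equal means of reference genes, leaving out the 40% dimmest probe sets or those ending in _x_at, _s_at or _a_at, 1 probe set per gene, stricter thresholds, leaving out each array, and equal poly-A spike-in means, the last chosen after seeing the data.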

Additional observations from a re-analysis of the deposited data

How the results depend on the processing

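The homozygous minus wild-type calls of Tal1, between -0.99 and -0.94, and of Lmo2, between -0.98 and -0.83, held in every alternative that tested them, these ranges leaving out the poly-A scaling given last. The numbers of complex probe sets called, 12 in homozygous minus wild-type, 7 in heterozygous minus wild-type, 2 in homozygous minus heterozygous blood and 3 off the midpoint, ranged from 9 to 11, 4 to 7, 2 to 4 and 0 to 4 when each array was left out. The replicate number as a block gave 11, 7, 3 and 2. Same-numbered arrays of different genotypes deviated together at r = -0.0231 to 0.0695, and differently numbered ones at r = -0.062 to 0.0341. An array correlated best with its own number in 9 of 18 comparisons. With 3 arrays per genotype these values cannot decide whether arrays of 1 number share a batch. In homozygous minus heterozygous blood an intensity trend gave 6, no moderation 5, array weights 4, cyclic loess 4, quantile normalization 6 and reference genes 4, and off the midpoint the trend gave 5. Quantile normalization called 4 higher and 9 lower in homozygous minus wild-type blood, and reference genes 0 higher and 7 lower in heterozygous minus wild-type blood. Without probe sets ending in _x_at, _s_at or _a_at, 12 were tested and 6 were called in homozygous minus wild-type blood, 2 in heterozygous minus wild-type blood and 0 off the midpoint. With 1 probe set per gene 7 of 10 were called in homozygous minus wild-type blood. An adjusted p under 0.01 left 4 in heterozygous minus wild-type blood and 0 off the midpoint, and a minimum of 1.5-fold left 4, 1, 1 and 0. Calls lost under stricter thresholds, or because a probe set was left out, follow from the construction. With fewer probe sets, calls of probe sets that stayed also changed in both directions. Without those ending in _x_at, _s_at or _a_at, Gata1 was no longer called in homozygous minus wild-type blood (limma adjusted p = 0.0606). Without the 40% dimmest, the second probe set of Zfpm1 was called there (limma adjusted p = 0.049). The cause of these and the other changes was not tested.

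Equal poly-A spike-in means called 20, 20, 20 and 5 of the 20, beside 45035 of all 45037 probe sets lower in homozygous minus wild-type blood. A sign change was counted only where a value was called in either setting. Then in homozygous minus wild-type blood Gata1 was at -1.40, Zfpm1 at -1.46 and -1.41, Gfi1b at -1.20 and Bcl11a at -1.55 and -1.54. In heterozygous minus wild-type blood Gata1 was at -0.88, Klf1 at -0.88, Gfi1b at -0.65 and Bcl11a at -0.86, -0.75, -0.82, -0.84 and -0.81. In homozygous minus heterozygous blood Gata1 was at -0.53, Ldb1 at -0.63, Zfpm1 at -0.58 and -0.52, Gfi1b at -0.55, Bcl11a at -0.69 and Sox6 at -0.56. Signal over background is unknown, which bears on the dim probe sets of Bcl11a and Sox6. A fit of only the groups compared was not run for the midpoint, which needs all 3.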

Other observations

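In homozygous minus heterozygous blood 15.8% of all genes passed the test, and 31.7% of those at a mean log2 level of at least 6, and the shares of the lists below are to be read against these. Of the 12 TAL1 partner genes, Ssbp3 at -0.64 and the E protein gene Tcf4 at -0.29 were lower in homozygous than in heterozygous blood (limma adjusted p = 6.82e-06 and 0.032). Of 7 coactivator genes, 4 were lower in homozygous blood, Ep300 at -0.74, Crebbp at -0.69, Kat2b at -0.46 and the bromodomain gene Brd3 at -0.35. Bach1 was at -0.85 and Nfe2l2 at -0.60, while Maff was higher by 0.30. Klf3 was at -1.01, and of the globin switching regulators Myb was at -0.77, Arid3a at -0.57 and Nr2c2 at -0.31. Of 16 corepressor genes 3 were higher and 3 lower, with Mbd3 at 0.35 and Hdac2 at -0.37.

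Of 24 red cell target genes, 5 were higher and 5 lower in homozygous minus heterozygous blood, against 11.1% higher and 20.6% lower among all genes at a mean log2 level of at least 6. Trim10 was at -0.58, while Cdkn1a at 0.51, Tspo2 at 0.43 and Sptb at 0.39 were higher in homozygous blood. Tspo2, which belongs to a family of membrane translocators, had log2 levels of 9.04, 8.99 and 8.97 in homozygous, 8.61, 8.60 and 8.51 in heterozygous, and 9.20, 9.18 and 9.14 in wild-type blood. Its heterozygous arrays were the lowest of the 3 genotypes.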
